A study of Mus musculus with 6 samples.

Results

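The genes of respiratory complex I were followed in sorted mouse round spermatids, the haploid cells that later elongate into sperm. Every row of the count table whose name begins with Nduf, then a, b, c, s, v or af, then a digit was taken, which gave 51 of 22770 gene rows. Of the 50 rows described, 35 encode subunits of the complex, 8 encode its assembly factors (the Ndufaf genes), 2 belong to the Ndufa4 family and 5 are copies annotated as pseudogenes. One of the 35, the row Ndufb1-ps, was placed with the subunits because RefSeq lists that name as an older symbol of the coding gene Ndufb1. The study compared 3 libraries of the genotype labelled Eif5a SKO (SKO below, an abbreviation that the labels do not expand) with 3 wild-type libraries (WT). All 6 were Smart-seq2 libraries, in which polyadenylated RNA is copied to cDNA and amplified by PCR, of cells sorted from testis at postnatal day 28, mostly at step 8. The promoter that drives the deletion and the number of animals behind a library are unstated in the sources used here, so p-values measure the spread between these libraries, which may be partly technical.

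Complex I, or NADH:ubiquinone oxidoreductase, passes electrons from NADH to ubiquinone and pumps protons across the inner mitochondrial membrane. It is L-shaped. Its matrix arm holds the N module, where NADH is oxidised at a flavin, and the Q module, where ubiquinone is reduced, and its membrane arm holds the proton pumps. The core subunits do the chemistry and are shared with bacteria, the accessory subunits surround them, and assembly factors help to build the complex without staying in it. Spermatids carry this chain into the mitochondria that later wrap the sperm midpiece. Core subunits encoded in the nucleus make up 6 of the 35, while the 7 encoded in mitochondrial DNA had no row in the table and were not analysed here.

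Libraries held 52055193 to 60970931 counts, which were scaled to a common effective library size to give each gene's level in CPM. Eif5a, the targeted gene, had 333, 338 and 270 counts in the SKO libraries, against 41149, 36162 and 41278 in WT, a check of the labels. SKO replicate 3 stood apart on the second principal component (-39.7, against 22.3 and 21.7 in SKO replicates 1 and 2), so counts are also given without it. Summed levels of 12 round spermatid markers were 7520 to 8340 CPM in SKO and 5271 to 5855 CPM in WT, and each of the 12 had a row. Sertoli cell markers, 8 of 12 listed having a row, summed to 67.1 to 221.5 CPM in SKO and 3 to 12.2 CPM in WT. Their sum was 221.5, 126 and 67.1 CPM in SKO replicates 1, 2 and 3, lowest in replicate 3. Of the 8, 7 were called higher, a count partly fixed by the choice of the list, which drew on earlier results of these data. Sox9, Wt1, Amh and Rhox5 had no row. Spermatogonium markers summed to 18.3 to 20.7 CPM in SKO and 23.75 to 27.7 CPM in WT. Macrophage markers summed to 1.94 to 7.35 CPM in SKO and 3.99 to 4.81 CPM in WT. Leydig cell markers summed to 8.02 to 44.6 CPM in SKO and 1.26 to 21.6 CPM in WT, peritubular and endothelial cell markers (Acta2 and Myh11, the 2 of 6 listed with a row; Acta2 was called higher) to 15.2 to 33.3 CPM in SKO and 3.98 to 10.1 CPM in WT, highest in SKO replicate 3, and spermatocyte markers to 739.6 to 905.7 CPM in SKO and 855.9 to 883.3 CPM in WT. Of the 6 Leydig cell markers, 3 were called higher and 0 lower, and of 5 macrophage markers with a row 1 and 1. Calls higher and lower were 5 and 1 of the 12 round spermatid markers and 2 and 2 of 10 spermatocyte markers. For the 6 spermatogonium markers with a row they were 0 and 2. The part of other cells in the results below was not tested. In such sorted pools, fewer cells of a type and less RNA per cell cannot be told apart.

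Most subunit genes were higher in SKO spermatids, and the 1 that fell among those described was a core subunit, Ndufs1. Of the 35 subunits, all of which passed the filter on low counts, 26 rose and 1 fell; a gene was called where edgeR's quasi-likelihood p, adjusted by Benjamini-Hochberg over all genes tested, was under 0.05. The background was 21.2% of all 19776 genes tested called higher and 20.9% called lower, whereas 74.3% of the subunits were called higher. The median log2 fold change of the subunits, SKO over WT, was 0.86, against 0.01 for all genes, and 12 of the 26 that rose did so at least 2-fold. Without SKO replicate 3, 25 rose and 1 fell, and the median was 0.60. Summed over the 35 subunits, the level was 6207, 6937 and 8658 CPM in the SKO libraries, against 4178, 3677 and 4148 CPM in the WT libraries. The highest sum lay in SKO replicate 3, where 31 of the 35 subunits had their highest SKO value, and the lowest in WT replicate 2, where 31 had their lowest WT value. The 3 SKO values all lay above the 3 WT values for 32 subunits and all below them for 1, where the groups parted in these ways for 27.3% and 28.3% of all genes.

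**Figure D1:**
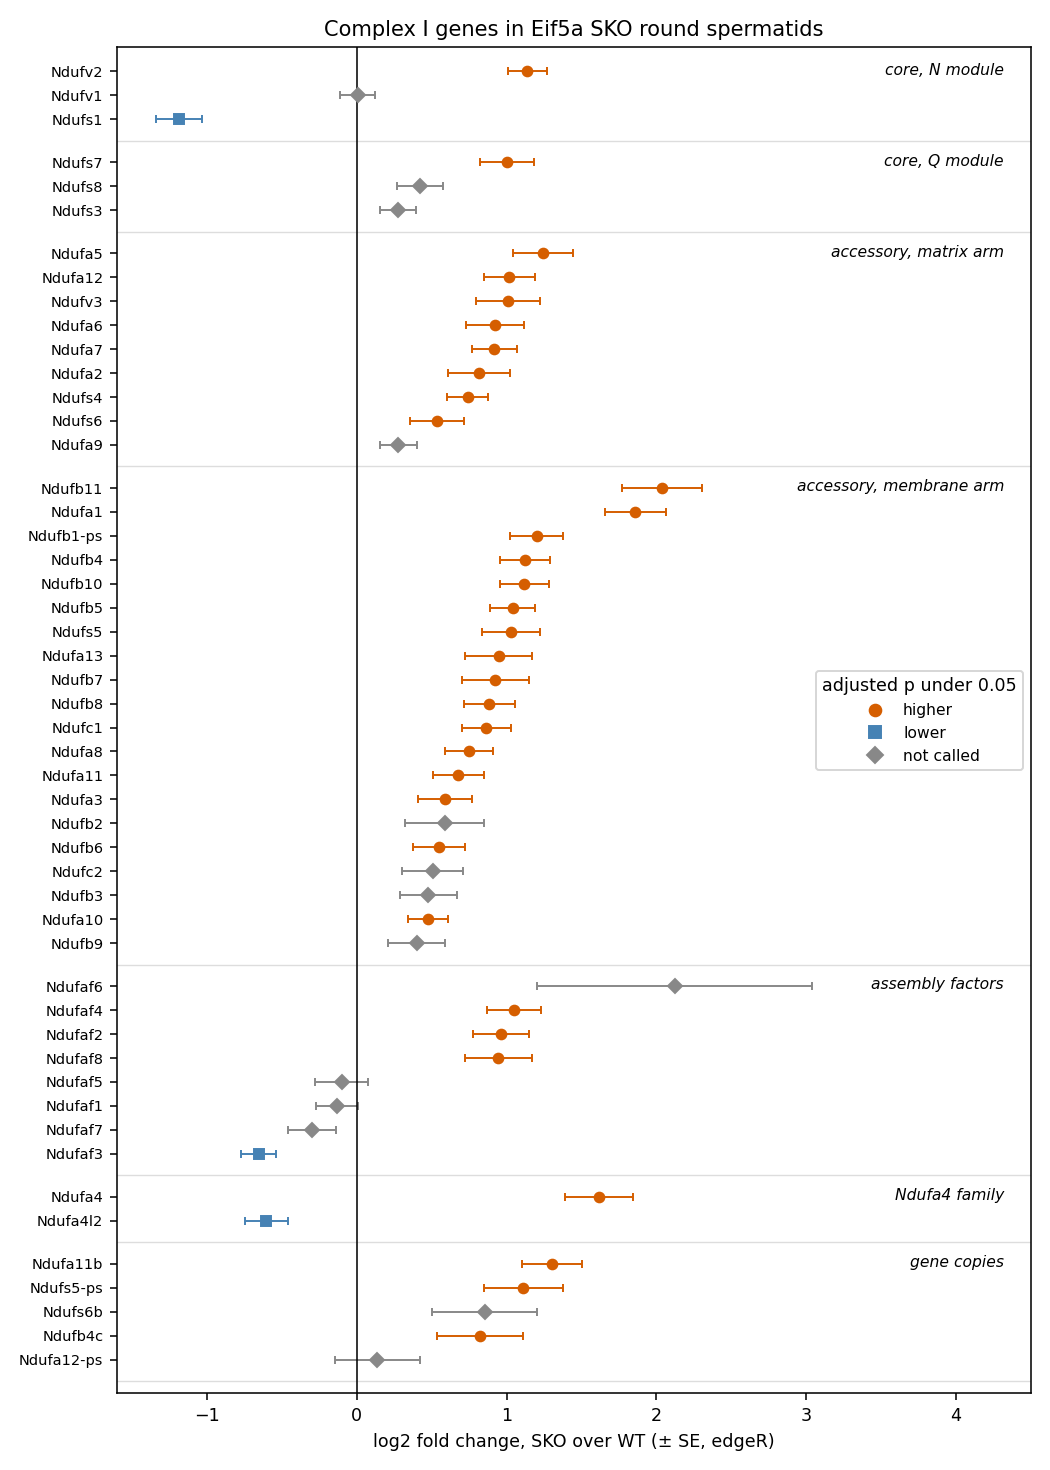
Log2 fold change, SKO over WT, with its standard error from edgeR for each of the 50 genes, grouped by role. Circles mark genes called higher, squares genes called lower and diamonds genes past neither side of the threshold; all 29 accessory subunits lie above 0, and the 1 subunit called lower, Ndufs1, is a core subunit.

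Of the 3 core subunits of the N module, 1 rose, 1 fell and 1 was not called. Ndufv1, which binds NADH and the flavin, stood at 146, 151 and 162 CPM in the SKO libraries, against 151, 146 and 159.8 CPM in the WT libraries. The groups overlapped, with a log2 fold change of 0.01 ± 0.12 (SE; edgeR adjusted p = 0.972) whose sign turned with library totals alone (-0.23). Ndufv2, which carries an iron-sulfur cluster beside the flavin, stood at 1368, 1611 and 1638 CPM in the SKO libraries, against 722, 629 and 745 CPM in the WT libraries. Every SKO value lay above every WT value, and the log2 fold change was 1.14 ± 0.13 (SE; edgeR adjusted p = 0.000186). Ndufs1, the largest subunit and the carrier of several iron-sulfur clusters, stood at 72.9, 72.0 and 53.2 CPM in the SKO libraries, against 146, 161 and 144 CPM in the WT libraries. All SKO values lay below all WT values, SKO replicate 3 lowest, with a log2 fold change of -1.19 ± 0.15 (SE; edgeR adjusted p = 0.000353). In GENCODE M21 (GRCm38), Ndufs1 spans chr1:63143596-63176833 and Ndufv2 chr17:66078638-66101559, both read from the minus strand; Eef1b2 overlaps Ndufs1 on the other strand.

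The ratio of Ndufv2 to Ndufs1 counts, which no scaling of libraries can alter, was 18.8, 22.4 and 30.8 in the SKO libraries, against 4.94, 3.92 and 5.17 in the WT libraries. The ratio of Ndufv1 to Ndufs1 counts was 2.01, 2.1 and 3.04 in SKO, against 1.04, 0.911 and 1.11 in WT. Neither ratio overlapped between the groups. Both ratios were chosen after the values were seen, and no test was made on them.

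Of the 3 core subunits described from the Q module, 1 rose and 2 were not called. Ndufs7, which carries the last iron-sulfur cluster before ubiquinone, stood at 74.6, 72.7 and 109.6 CPM in the SKO libraries, against 44.7, 39.3 and 44.4 CPM in the WT libraries. Its log2 fold change was 1.00 ± 0.18 (SE; edgeR adjusted p = 0.00195), with no overlap and with SKO replicate 3 highest. Ndufs3, which holds no cofactor, stood at 133, 139 and 144 CPM in the SKO libraries, against 113, 110.1 and 120.4 CPM in the WT libraries, with no overlap but a log2 fold change of 0.28 ± 0.12 (SE; edgeR adjusted p = 0.0878). Ndufs8, another carrier of iron-sulfur clusters, stood at 33.7, 43.5 and 41.0 CPM in the SKO libraries, against 27.9, 27.9 and 32.2 CPM in the WT libraries, and its log2 fold change of 0.42 ± 0.15 (SE; edgeR adjusted p = 0.0507) also missed the threshold. With a filter of 5 CPM in 3 libraries both passed (edgeR adjusted p = 0.0496 for Ndufs3 and 0.0329 for Ndufs8), and DESeq2 called Ndufs8 as well (adjusted p = 0.0355). Ndufs7 spans chr10:80249121-80256794 (plus strand).

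**Figure D2:**
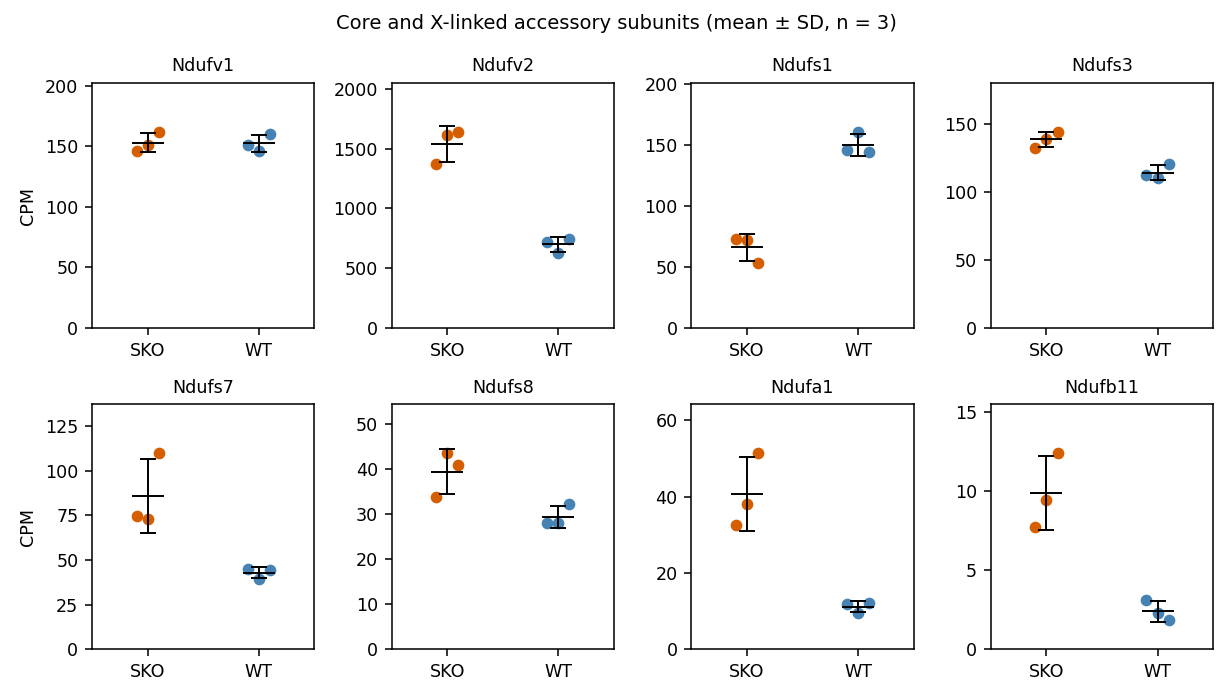
Level in CPM of 6 core subunits and of the 2 X-linked accessory subunits in each library, SKO left and WT right, with the mean and SD of 3 libraries; each axis starts at 0. Ndufs1 is lower in all SKO libraries, Ndufv1 overlaps, and Ndufv2, Ndufs7, Ndufa1 and Ndufb11 are higher in all SKO libraries.

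Accessory subunits of the matrix arm rose almost throughout. Of 9, 8 were called higher and 0 lower by edgeR (0 lower also at an unadjusted p under 0.05, by DESeq2 and by limma-voom), with a median log2 fold change of 0.92. Ndufa5, a small subunit of the Q module, stood at 268, 313 and 456 CPM in the SKO libraries, against 162, 130.2 and 146 CPM in the WT libraries. SKO replicate 3 was far the highest, and the log2 fold change was 1.24 ± 0.20 (SE; edgeR adjusted p = 0.000983). Ndufa12 stood at 317, 282 and 429 CPM in the SKO libraries, against 184, 159 and 164 CPM in the WT libraries, with a log2 fold change of 1.02 ± 0.17 (SE; edgeR adjusted p = 0.00121) and no overlap between the groups. It is related in sequence to the assembly factor Ndufaf2 and takes that factor's place late in assembly. Ndufv3, a subunit of the N module, stood at 30.7, 37.4 and 51.1 CPM in the SKO libraries, against 22.4, 16.2 and 20.5 CPM in the WT libraries, and rose by 1.01 ± 0.21 (SE; edgeR adjusted p = 0.00428) on the log2 scale.

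The others of the matrix arm that rose were Ndufa7 (0.92 ± 0.15), Ndufa6 (0.92 ± 0.19), Ndufa2 (0.81 ± 0.21), Ndufs4 (0.74 ± 0.14) and Ndufs6 (0.54 ± 0.18), given as log2 fold changes. Ndufs4 is best known from humans, where its loss causes Leigh syndrome. The Ndufs6 call was among the least stable: it ended under 9 of the 15 alternatives, among them library totals (edgeR adjusted p = 0.227), the length and GC correction (0.236) and leaving out SKO replicate 3 (0.0542), where its value was 0.29. That of Ndufa2 ended with library totals (0.0583) and without WT replicate 2 (0.0529), and its log2 fold change was 0.49 without SKO replicate 3. Ndufa9, which lies near the joint of both arms, was the member that missed the threshold, at 206 ± 19.9 CPM in SKO and 170.1 ± 4.77 CPM in WT (SD, n = 3 each) and 0.28 ± 0.12 (SE; edgeR adjusted p = 0.101). It passed without SKO replicate 3, its lowest SKO value (edgeR adjusted p = 0.0141), and with the 5 CPM filter (0.0481).

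In the membrane arm, 16 of 20 accessory subunits rose and 0 fell (0 lower also at an unadjusted p under 0.05, by DESeq2 and by limma-voom), with a median log2 fold change of 0.87. The largest changes were those of the 2 X-linked subunits. Ndufb11, in the outer portion of the arm, stood at 7.75, 9.46 and 12.4 CPM in the SKO libraries, against 3.12, 2.27 and 1.83 CPM in the WT libraries, and its log2 fold change was 2.04 ± 0.27 (SE; edgeR adjusted p = 0.000359). Ndufa1, a very small subunit near the joint with the matrix arm, stood at 32.5, 38.0 and 51.3 CPM in the SKO libraries, against 12.0, 9.53 and 12.1 CPM in the WT libraries, with 1.86 ± 0.20 (SE; edgeR adjusted p = 0.000138). Both were separated from WT in every library. Both are minus-strand genes, Ndufb11 at chrX:20615326-20617619, overlapped by Rbm10 on the other strand, and Ndufa1 at chrX:37187588-37191163. Among all 740 X-linked genes tested, 63.4% were called higher and 1.76% lower, and most X-linked genes thus rose. With these 2 left out, 24 of 33 autosomal subunits rose, 1 fell, and the median was 0.81.

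Among the autosomal subunits of the membrane arm, the row Ndufb1-ps stood at 243, 260.3 and 374 CPM in the SKO libraries, against 138, 115 and 129 CPM in the WT libraries. Its log2 fold change was 1.20 ± 0.18 (SE; edgeR adjusted p = 0.000685), with no overlap; GENCODE annotates the row as a noncoding RNA and RefSeq as the coding gene. Ndufb4 (1.12 ± 0.17), Ndufb10 (1.12 ± 0.16), Ndufb5 (1.04 ± 0.15) and Ndufs5 (1.03 ± 0.19) followed. Next came Ndufa13 (0.95 ± 0.22), Ndufb7 (0.93 ± 0.23), Ndufb8 (0.88 ± 0.17), Ndufc1 (0.86 ± 0.16) and Ndufa8 (0.75 ± 0.16). Ndufa11 (0.68 ± 0.17), Ndufa3 (0.59 ± 0.18), Ndufb6 (0.55 ± 0.18) and Ndufa10 (0.47 ± 0.13) rose least, and each of these 4 calls ended with library totals alone, at an edgeR adjusted p of 0.0746, 0.159, 0.201 and 0.18. Of the 15 alternatives, the call of Ndufa11 held under 12, that of Ndufa3 under 8, that of Ndufb6 under 6 and that of Ndufa10 under 9. Ndufb6 lost its call without SKO replicate 3 as well (0.0615). Leaving out that library moved Ndufa13 to 0.61, Ndufb7 to 0.59 and Ndufa3 to 0.39, with their calls kept. Ndufa13, known in humans as GRIM-19, was first described as a cell death regulator, and Ndufa10 resembles nucleoside kinases.

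Ndufb2, Ndufc2, Ndufb3 and Ndufb9 missed the threshold, with log2 fold changes of 0.59 ± 0.26, 0.51 ± 0.20, 0.48 ± 0.19 and 0.40 ± 0.19 and edgeR adjusted p of 0.101, 0.0699, 0.0656 and 0.12. Among these, Ndufb2 alone overlapped between the groups. Ndufb3 passed with DESeq2 (adjusted p = 0.0469), with the 5 CPM filter (0.0494) and without SKO replicate 1 (0.0302). In GENCODE M21, 6 of the 35 subunits, Ndufb2, Ndufc2 and Ndufb9 among them, overlap another gene on their own strand and 14 overlap one on the other strand. These are overlaps of whole gene spans, introns included, so they need not touch an exon. Strand cannot separate reads in a same-strand overlap, and whether it was used for the others is not given.

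**Figure D3:**
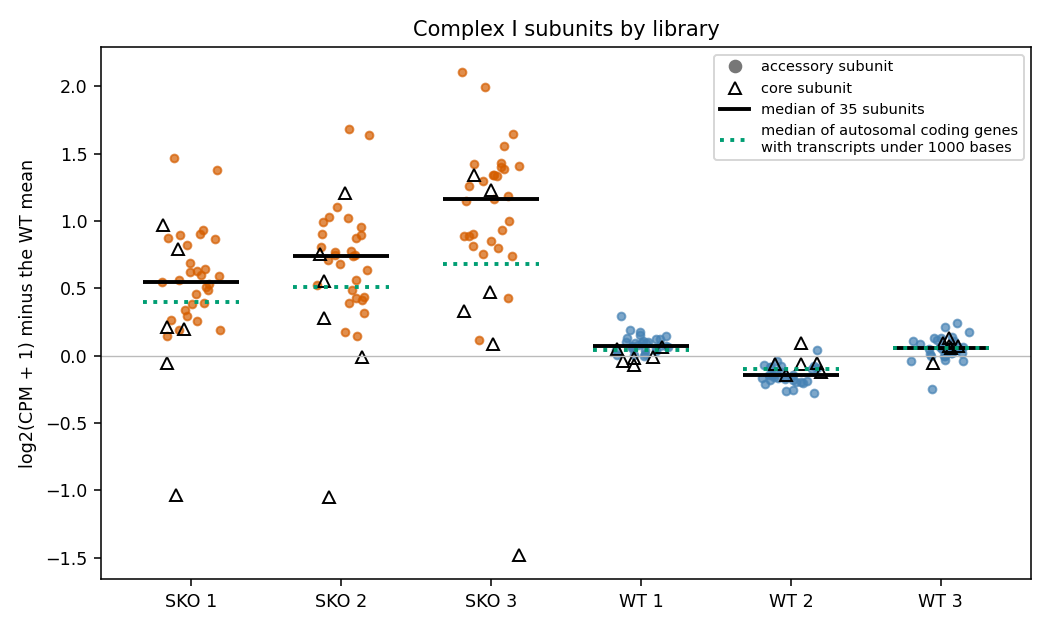
Each subunit's log2(CPM + 1) in each library minus its WT mean, with accessory subunits as filled circles, core subunits as open triangles and the median of the 35 as a black bar. The medians are 0.54, 0.74 and 1.16 in SKO replicates 1, 2 and 3 and 0.07, -0.14 and 0.06 in WT replicates 1, 2 and 3; the dotted bars, for autosomal coding genes with transcripts under 1000 bases, are highest in SKO replicate 3 as well.

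The subunit transcripts are short, and short transcripts as a class were higher in SKO. Of 1073 autosomal coding genes tested whose transcript is under 1000 bases, 53.2% were called higher and 8.67% lower, with a median log2 fold change of 0.68. Of 11581 with a transcript of 1000 bases or more, 16.7% were called higher and 24.5% lower, with a median of -0.10. Among the subunits, 19 of 22 with a transcript under 1000 bases rose (86.4%), with a median of 0.92, and 7 of 13 with a longer one (53.8%), with a median of 0.59. Unlike that background, the 22 include the X-linked Ndufa1 and Ndufb11, and the row Ndufb1-ps, which GENCODE annotates as noncoding. The per-library medians of the short autosomal genes on the log2(CPM + 1) scale, relative to the WT mean, were 0.40, 0.51 and 0.68 in the SKO libraries, against 0.04, -0.10 and 0.06 in the WT libraries. Those of the subunits were 0.54, 0.74 and 1.16, against 0.07, -0.14 and 0.06, so SKO replicate 3 was highest and WT replicate 2 lowest for both.

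A loess correction of each library for transcript length and GC content left 23 subunits higher, 1 lower and a median of 0.63. The subunits that lost their calls under it were Ndufs6, Ndufa3 and Ndufb6. The correction takes out whatever moves with length or GC content, real changes included. Within the 35 subunits, the log2 fold change had a Spearman rho of -0.20 with transcript length, -0.41 with the number of exons and 0.05 with GC content, given as descriptions over genes that share the same 6 libraries. The core subunits described are longer, with a median coding length of 766 bases against 402 for accessory subunits. Within the core set, Ndufv2, with a transcript of 1697 bases and 42% GC, rose, while Ndufv1, with 1661 bases and 56.7% GC, was not called. With the length and GC correction their log2 fold changes were 0.94 and 0.234, against 1.14 and 0.006 without it. What sets this pair apart was not tested.

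**Figure D4:**
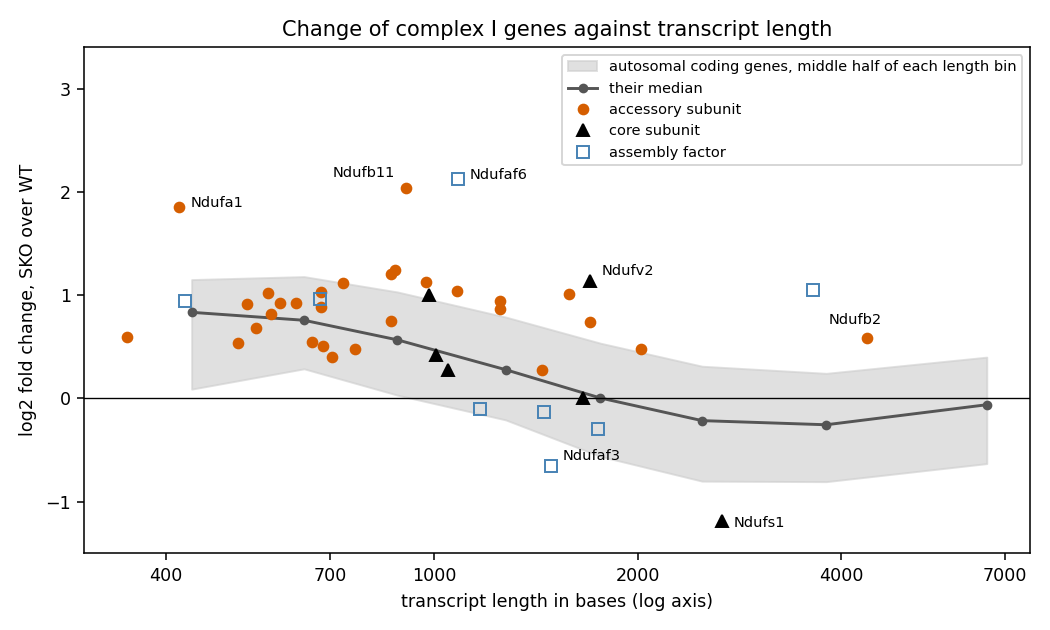
Log2 fold change, SKO over WT, against transcript length (log axis) for accessory subunits (circles), core subunits (triangles) and assembly factors (open squares), over the median and the span between the quartiles of autosomal coding genes in 8 length bins (line and band). The background median runs from 0.83 in the shortest bin to -0.26 in transcripts of 3000 to 5000 bases. Of the labelled genes, Ndufs1 and Ndufaf3 lie below the quartiles of their length bin. Ndufv2, Ndufa1, Ndufb11, Ndufb2 and Ndufaf6 lie above them, though Ndufb2 and Ndufaf6 were not called. Unlabelled genes, Ndufv3, Ndufs4, Ndufb5, Ndufa5 and Ndufaf4 among them, lie above them as well. Ndufa1 and Ndufb11 are X-linked, unlike the background.

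Levels were then set beside each other per length, as CPM per kilobase of transcript. Ndufa7 was highest, at 1093 ± 184 in SKO and 578 ± 57.2 in WT (SD, n = 3 each). Ndufv2 was second, at 907 ± 87.4 in SKO and 412 ± 36.1 in WT. The order then held Ndufa12, at 606 ± 136 in SKO and 299 ± 23.1 in WT, and Ndufa2, at 527 ± 172 in SKO and 299.8 ± 18.4 in WT, which differed by less than their spread in both groups. Ndufb11 and Ndufb2 were the lowest 2 in both groups, Ndufb11 at 10.9 ± 2.58 in SKO and 2.65 ± 0.722 in WT. The place of Ndufb2, at 1.37 ± 0.445 in SKO and 0.913 ± 0.142 in WT, rests on an annotated transcript of 4371 bases with only 315 coding bases. Among the 35, Ndufs1 ranked 31 in SKO and 24 in WT, and Ndufa1 ranked 22 in SKO and 30 in WT.

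The assembly factors did not move as a block. Of 8, all past the filter, 3 rose and 1 fell, and 4 passed on neither side, beside 21.2% higher and 20.9% lower among all genes, with a median log2 fold change of 0.42; on 8 genes these counts do not set the factors apart from that background. That median turned to -0.07 with the 5 CPM filter, which left out Ndufaf6, and was 0.22 without SKO replicate 3. Ndufaf3 and Ndufaf4, which work together on the Q module, went opposite ways. Ndufaf3 stood at 243, 249 and 275 CPM in the SKO libraries, against 407, 385 and 415 CPM in the WT libraries. It was lower in all SKO libraries, with a log2 fold change of -0.65 ± 0.12 (SE; edgeR adjusted p = 0.00194). Ndufaf4 stood at 8.12, 9.41 and 9.03 CPM in the SKO libraries, against 4.60, 4.19 and 4.02 CPM in the WT libraries, and rose by 1.05 ± 0.18 (SE; edgeR adjusted p = 0.00143) on the log2 scale. Ndufaf3 spans chr9:108565537-108567434 (minus strand, overlapped by Impdh2 on the other) and Ndufaf4 chr4:24898083-24905001 (plus strand).

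Ndufaf2, the relative of Ndufa12 that acts late in assembly, stood at 151, 164 and 246 CPM in the SKO libraries, against 103, 87.1 and 98.3 CPM in the WT libraries. No values overlapped, and the log2 fold change was 0.96 ± 0.19 (SE; edgeR adjusted p = 0.00306) beside 1.02 ± 0.17 for Ndufa12. Ndufaf8, the partner of Ndufaf5, stood at 93.2, 103 and 175 CPM in the SKO libraries, against 68.3, 59.7 and 65.0 CPM in the WT libraries, with 0.95 ± 0.22 (SE; edgeR adjusted p = 0.00781). SKO replicate 3 was well above the other SKO libraries for both, and without it the Ndufaf8 value was 0.58. Ndufaf5, which hydroxylates an arginine of Ndufs7, stood at 9.77, 9.61 and 12.6 CPM in the SKO libraries, against 10.8, 10.9 and 12.7 CPM in the WT libraries, overlapped and was not called, with -0.10 ± 0.18 (SE; edgeR adjusted p = 0.679).

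Ndufaf7, a methyltransferase of early assembly, stood at 31.1, 39.3 and 33.3 CPM in the SKO libraries, against 36.6, 43.5 and 47.7 CPM in the WT libraries. The groups overlapped, and the log2 fold change of -0.30 ± 0.16 (SE; edgeR adjusted p = 0.161) passed with library totals alone (-0.54, adjusted p = 0.0198). Ndufaf1, which belongs to a membrane complex that builds part of the membrane arm, stood at 31.2, 31.5 and 29.8 CPM in the SKO libraries, against 36.8, 30.6 and 34.0 CPM in the WT libraries, with -0.13 ± 0.14 (SE; edgeR adjusted p = 0.481). Ndufaf6 was near the limit of detection, with 41, 22 and 44 counts in the SKO libraries, against 17, 0 and 12 in the WT libraries. Its log2 fold change of 2.12 ± 0.92 (SE; edgeR adjusted p = 0.0896) missed the threshold, but passed with DESeq2 (adjusted p = 0.0427), with limma-voom (0.0498) and with the replicate number as a block (0.0491).

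**Figure D5:**
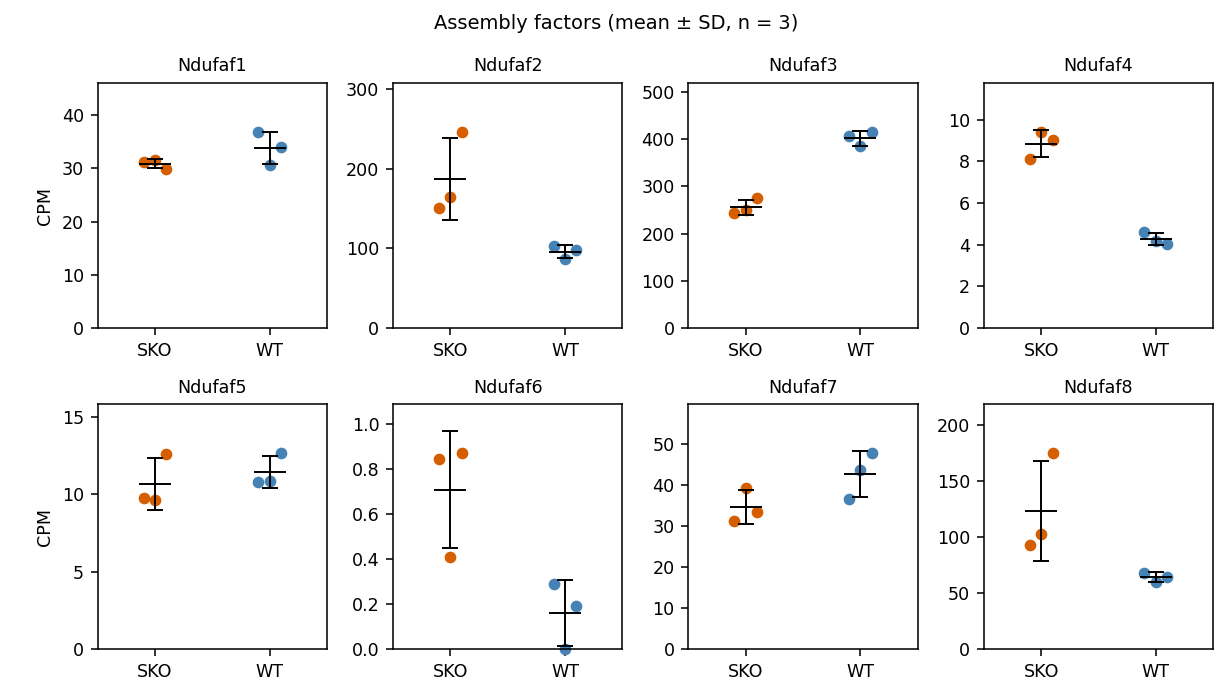
Level in CPM of the 8 assembly factors in each library, SKO left and WT right, with the mean and SD of 3 libraries; each axis starts at 0. Ndufaf3 is lower in all SKO libraries, Ndufaf2, Ndufaf4 and Ndufaf8 are higher in all, and Ndufaf1, Ndufaf5 and Ndufaf7 overlap.

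Promoter letters were searched in RefSeq's windows on GRCm38.p6, from 250 bases before a start to 50 after it, which matched 32 of the 35 subunits and 7 of the 8 assembly factors. On either strand, the letters AAGATGGCG, bound by YY1, were found in 5 of the 32 subunits (Ndufa9, Ndufc1, Ndufs4, Ndufs6 and Ndufs7) and in Ndufaf8, and in 1.4% of all 32851 windows. The letters CCAATC, one form of the CCAAT box, were found in 6 of the 32, in 4 of the 7 assembly factors and in 16.1% of all windows. The consensus of NRF1, an activator of nuclear genes for mitochondria, was found in 1 of the 32 (Ndufa11), in 2 of the 7 (Ndufaf4 and Ndufaf5) and in 0.971% of all windows. TGACGTCA, the cAMP response element, was found in 3 of the 32, 0 of the 7 and 1.79% of all, CCGGAAGT, bound by ETS factors, in 1 of the 32 (Ndufs3), 0 of the 7 and 3.89%, and TCAAGGTCA, bound by ERR receptors, in 0 of both and 0.423%. A gene counted where any of its windows held the letters, while the share of all is per window, so the 2 are not like measures. None of these sets of letters contains another, and a match is a description of the window only. The last 150 bases before the start are shown for the X-linked pair that rose most, the core subunit that rose most and the assembly factor that fell, with CCAATC or its reverse complement in capitals. The start is RefSeq's, which for Ndufa1 and Ndufaf3 lies upstream of the GENCODE start of the gene given above.
Ndufb11, chrX:20617620-20617769, minus strand: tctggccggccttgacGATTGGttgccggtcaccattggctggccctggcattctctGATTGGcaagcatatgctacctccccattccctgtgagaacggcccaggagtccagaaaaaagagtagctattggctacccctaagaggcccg
Ndufa1, chrX:37191239-37191388, minus strand: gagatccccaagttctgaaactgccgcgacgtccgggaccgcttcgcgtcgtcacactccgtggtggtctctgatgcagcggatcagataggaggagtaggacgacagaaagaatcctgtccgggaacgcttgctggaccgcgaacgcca
Ndufv2, chr17:66101560-66101709, minus strand: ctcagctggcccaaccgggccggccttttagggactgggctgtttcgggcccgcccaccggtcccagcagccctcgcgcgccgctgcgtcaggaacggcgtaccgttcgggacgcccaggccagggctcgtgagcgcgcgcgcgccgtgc
Ndufaf3, chr9:108567437-108567586, minus strand: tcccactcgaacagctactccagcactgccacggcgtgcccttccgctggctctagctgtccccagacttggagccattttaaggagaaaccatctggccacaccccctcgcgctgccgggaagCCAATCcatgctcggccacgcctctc
Ndufb11 thus held CCAATC or its reverse complement 2 times in this stretch and Ndufaf3 once (the shorter letters CCAAT, which the Ndufb11 stretch holds more often, were not counted); the first gene rose and the second fell. None of the 6 motifs was found in the stretches of Ndufa1 and Ndufv2.

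The Ndufa4 family was set apart because Ndufa4, first assigned to complex I, is now counted with complex IV. Ndufa4 stood at 7.72, 6.44 and 6.43 CPM in the SKO libraries, against 2.03, 1.93 and 2.74 CPM in the WT libraries, and its log2 fold change was 1.62 ± 0.23 (SE; edgeR adjusted p = 0.000517). Its relative Ndufa4l2, known from cells short of oxygen, stood at 44.4, 38.8 and 41.6 CPM in the SKO libraries, against 66.0, 55.8 and 67.5 CPM in the WT libraries, with -0.60 ± 0.14 (SE; edgeR adjusted p = 0.00749). Each was separated between the groups, in opposite directions, and Ndufa4l2 had the higher level per kilobase in both groups, at 44.5 ± 3.01 in SKO and 67.6 ± 6.81 in WT, against 11.3 ± 1.22 in SKO and 3.66 ± 0.728 in WT for Ndufa4. Ndufa4l2 overlaps Shmt2 on the other strand.

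Copies of subunit genes annotated as pseudogenes also had reads. Ndufa11b stood at 8.76, 10.2 and 12.2 CPM in the SKO libraries, against 4.79, 3.85 and 3.96 CPM in the WT libraries, with a log2 fold change of 1.31 ± 0.20 (SE; edgeR adjusted p = 0.000812), and its parent Ndufa11 rose by 0.68 ± 0.17. Ndufs5-ps stood at 6.98, 8.91 and 14.4 CPM in the SKO libraries, against 4.75, 4.31 and 4.92 CPM in the WT libraries, with 1.11 ± 0.26 (SE; edgeR adjusted p = 0.00776) beside 1.03 ± 0.19 for its parent Ndufs5, and 0.74 without SKO replicate 3. Ndufb4c stood at 2.66, 2.56 and 4.40 CPM in the SKO libraries, against 1.87, 1.62 and 1.94 CPM in the WT libraries, with 0.82 ± 0.29 (SE; edgeR adjusted p = 0.0417), a call that ended under 8 alternatives, leaving out any WT replicate or SKO replicate 3 among them (adjusted p = 0.0835 to 0.146; its value was 0.50 without SKO replicate 3). Ndufs6b was not called, with 0.85 ± 0.35 (SE; edgeR adjusted p = 0.0774), but passed without SKO replicate 1 (0.0209). Ndufa12-ps stood at 56.9, 148 and 89.6 CPM in the SKO libraries, against 93.6, 81.5 and 93.2 CPM in the WT libraries, and was not called, with 0.14 ± 0.28 (SE; edgeR adjusted p = 0.729). Only SKO replicate 2 lay above the WT values, and the sign turned without that library (-0.31). How reads that match more than 1 place were counted is not given, so copies and parents may share reads. Ndufb4, Ndufs5 and Ndufa12 are among 10 subunits with a stretch of at least 150 bases in another GENCODE gene at 95% identity or more. For Ndufb5, Ndufb6, Ndufa13 and Ndufb9, also among the 10, that other gene overlaps the subunit's own span and is not a copy elsewhere. Ndufa11b had no such stretch in another gene. Ndufs6, searched from its transcript of longest coding length, is not among the 10, but its copy Ndufs6b had such a stretch in Ndufs6.

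Other genes that serve complex I were read from lists of known members. Ndufab1, the acyl carrier protein that is also a subunit but lies outside the name rule, stood at 44.9, 48.9 and 58.0 CPM in the SKO libraries, against 21.5, 17.9 and 22.2 CPM in the WT libraries, with a log2 fold change of 1.30 ± 0.16 (SE; edgeR adjusted p = 0.000283). Of 10 other assembly factors with a row, 3 rose and 2 fell, shares near those of all genes (21.2% higher and 20.9% lower), with a median of -0.04. Nubpl, which delivers iron-sulfur clusters to the complex, rose by 0.91 ± 0.13 (SE; edgeR adjusted p = 0.000476), and Lyrm2 by 0.73 ± 0.18 (SE; edgeR adjusted p = 0.00991). Acad9, a partner of Ndufaf1, changed by -1.25 ± 0.40 (SE; edgeR adjusted p = 0.0319) and Dmac1, a factor of the membrane arm, by -0.60 ± 0.17 (SE; edgeR adjusted p = 0.0186). Library totals alone gave 1 higher and 3 lower in this list, the length and GC correction 1 and 1, and the 5 CPM filter and leaving out SKO replicate 3 each gave 3 and 1. The 5 CPM filter left out Acad9, whose mean level was 0.984 CPM in SKO and 2.34 CPM in WT. In the list for iron-sulfur cluster synthesis 8 of 14 rose and 0 fell by edgeR (1 lower at an unadjusted p under 0.05, 1 by DESeq2, 0 by limma-voom and 3 with library totals alone), with a median of 0.51. The shares called higher and lower were 21.2% and 20.9% of all genes, and 53.2% and 8.67% of short autosomal coding genes. Bola3, a late factor of cluster delivery, rose by 1.23 ± 0.16 (SE; edgeR adjusted p = 0.000319), and Hscb, a co-chaperone of cluster transfer, by 1.09 ± 0.17 (SE; edgeR adjusted p = 0.000888).

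For flavin supply, Rfk, which makes the flavin of Ndufv1, rose by 0.49 ± 0.12 (SE; edgeR adjusted p = 0.0108), and Flad1, the next enzyme on the way to FAD, fell, with a log2 fold change of -0.66 ± 0.17 (SE; edgeR adjusted p = 0.0114); the Rfk call ended with library totals and the Flad1 call with the length and GC correction. Slc25a32, the third gene of that list, was not called. Of 12 genes of ubiquinone synthesis 3 rose, a share near the 21.2% of all genes, and 1 fell, against 20.9% of all genes, with a median of 0.04: Coq2 rose by 1.47 ± 0.27 (SE; edgeR adjusted p = 0.00232) and Coq7 by 1.21 ± 0.27 (SE; edgeR adjusted p = 0.00535), and Coq8b changed by -1.10 ± 0.36 (SE; edgeR adjusted p = 0.0352). That list had 3 lower with library totals alone, and 0 lower without SKO replicate 3, with the 5 CPM filter and with the length and GC correction, which gave 4 higher. The 5 CPM filter left out Coq8b, at 4.38, 1.76 and 1.82 CPM in the SKO libraries, against 6.15, 6.56 and 4.33 CPM in the WT libraries. Of 4 other enzymes that feed electrons to ubiquinone, 0 rose by edgeR (0 at an unadjusted p under 0.05, by DESeq2 and by limma-voom, but 1 with the length and GC correction and 1 without SKO replicate 3) and 1 fell, Gpd2, with a log2 fold change of -0.52 ± 0.18 (SE; edgeR adjusted p = 0.0403), with a median of -0.03; with the length and GC correction 0 fell. In complexes II to V as 1 list 30 of 39 rose and 2 fell, with a median of 0.87, next to 26 of the 35 and 0.86 for complex I. Among all genes 21.2% were called higher and 20.9% lower, and among short autosomal coding genes 53.2% and 8.67%. Complex II, the other entry of electrons, had 1 of 4 higher and 1 lower, near the shares of all genes. Complex III had 6 of 9 and 0, complex IV 11 of 11 and complex V 12 of 15 and 1. Library totals alone gave 0 higher and 2 lower in complex II and 5 and 1 in complex III. For complex II, DESeq2 gave 1 and 2, and the replicate block 1 and 0. The length and GC correction gave 12 and 0 in complex V. No test was made between the complexes.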

How the data were processed

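Raw counts per gene were deposited by the authors as 1 table of 6 libraries, 3 SKO and 3 WT. Reads had been trimmed (Trim Galore 0.6.4), aligned to GRCm38 (HISAT2 2.0.5) and counted (featureCounts 1.5.0-p3), per the submitters' processing notes; annotation, strand setting and handling of multi-mapping reads are unstated. PCR copies carry no molecular identifiers.

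Counts were tested with edgeR 4.0.16 in R 4.3.3 (filterByExpr with minimums 10 and 15, TMM, quasi-likelihood, 2-sided, SKO over WT). Benjamini-Hochberg adjustment ran over 19776 genes, and 2994 rows were below the filter. Log2 fold changes have SE; CPM have SD, n = 3. GENCODE M21 matched 96.7% of rows and RefSeq alone 2.29%; lengths are those of each gene's transcript of longest coding length. Copies were searched with blastn 2.17.0. Of the 51 rows that match the name rule, 1 is not reported here and enters no count of members; it stayed in the fit.

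Members, pathway lists and cell markers were chosen with earlier results of these data known, the Sertoli list in part from them. Values per library are given for core, X-linked and lower members and the 3 largest changes of each role; of a supply list, up to 2 called genes in each direction with the lowest adjusted p; every other member may be named. Alternatives were library totals alone, DESeq2 size factors, DESeq2 1.42.0, limma-voom (limma 3.58.1), no filter, 5 CPM in 3 libraries, each library left out, the replicate number as a block, and a loess correction for length and GC content with and without that block. On simulated data with 19229 genes, edgeR found 39% of 2-fold and 76% of 4-fold changes, and 6.5% of its calls were unchanged genes. Far fewer genes were changed in the simulation than were called in the data, so these rates need not hold there. Replicates of a group differed beyond sampling noise (chi-square per degree of freedom 14.2 to 141).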

Additional observations from a re-analysis of the deposited data

How the results depend on the processing

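Of the 36 members called by edgeR, 29 kept their direction and their side of the threshold under all 15 alternatives; among subunits these were 21 of 27. The exceptions were Ndufa10, Ndufa11, Ndufa2, Ndufa3, Ndufb6, Ndufs6 and Ndufb4c. Subunits called lower numbered 1 under every alternative, Ndufs1 each time. Subunits called higher numbered 20 with library totals alone, 23 with the length and GC correction, 28 with DESeq2, 27 with limma-voom, 30 with the 5 CPM filter and 20 to 27 when 1 library was left out. The 5 CPM filter kept 34 subunits, and 3072 of all 10279 genes it kept were called higher. Of all 19776 genes, 4562 were called higher with the length and GC correction, 4452 with DESeq2 and 4273 with limma-voom. With library totals alone the all-gene median was -0.228, against 0.01 with TMM, 2831 genes were called higher and 5666 lower, against 4185 and 4127, and the subunit median was 0.63. Assembly factors called lower numbered 2 with library totals alone, where Ndufaf7 was added, and 1 otherwise. Their median was 0.20 with library totals alone, -0.07 with the 5 CPM filter, 0.22 with the length and GC correction and 0.21 when the block was added to it, and 0.22 to 0.51 when 1 library was left out. It is a median of 8 values on both sides of 0, and the 5 CPM filter removes Ndufaf6. Ndufv1 turned sign at values near 0: -0.23 with library totals alone, -0.006 with DESeq2 and with its size factors, and -0.069 to 0.04 when 1 library was left out. Ndufa12-ps turned to -0.11 with library totals alone and ranged from -0.311 to 0.392 when 1 library was left out. The causes were not tested.

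With the replicate number as a block, 22 subunits were called higher and 1 lower, with a median of 0.85, and together with the length and GC correction 22 and 1. Deviations of same-numbered libraries from their group means correlated at -0.06, -0.13 and -0.09, and no library correlated best with its own number. Such deviations cancel out within each small group, so these values cannot show whether libraries with the same number were handled together. Genes at few counts, Ndufaf6 above all, are limited by depth.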
